A study of Mus musculus with 6 samples.

Results

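The imprinted set described here held 10 genes, H19, Igf2, Kcnq1ot1, Cdkn1c, Airn, Igf2r, Meg3, Peg3, Peg13 and Snhg14, named as a list and not by their values, out of 47643 gene identifiers counted in each tumor. All 10 were found by symbol in a GRCm38 annotation. Levels were read as CPM, the count of a gene scaled by all counts on genes in that tumor.

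The samples were epithelial tumor cells of 6 breast tumors from MMTV-PyMT mice of the line FVB/N-Tg (MMTV-PyVT)634Mul/J, in which the MMTV promoter drives the polyoma middle T antigen in mammary epithelium. The mice were females by the study's methods, and every mouse received B20-4.1.1, an antibody that binds mouse VEGF-A, at 5 mg/kg by intraperitoneal injection 2 times a week for 6 weeks from 7 weeks of age. CD45-EPCAM+ cells were sorted, so a sample is a bulk of sorted cells from 1 tumor, and fewer cells that use a gene and less RNA per cell cannot be told apart. The study sorts treated tumors into low and high hypoxia classes. The class of each of these 6 tumors is not in the labels, and vehicle samples were not analysed here, so the design gives 1 group of 6 tumors and no comparison between groups.

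Imprinted genes are expressed mainly from the copy inherited from 1 parent, under marks of DNA methylation laid down in the egg or the sperm. Most sit in clusters in which a long noncoding RNA from 1 parental copy goes with silence of the protein-coding neighbors on that same copy, as for Kcnq1ot1 with Cdkn1c and for Airn with Igf2r. Many of the proteins act on growth: IGF2 promotes it, IGF2R takes IGF2 up for degradation and CDKN1C, the cyclin-dependent kinase inhibitor p57, restrains the cell cycle. H19 and Igf2 share enhancers, and their noncoding and coding products are known for high levels in fetal tissue and low levels after birth. The mice are inbred and the values are counts per gene, so the parental copies cannot be told apart in these data.

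The libraries read the 3′ end of polyadenylated transcripts, so what is counted for a noncoding RNA depends on its annotated end. The last 30 bases of the longest annotated transcript of the 6 noncoding members, read on GRCm38, are shown for that reason, with the polyadenylation signal (AATAAA or ATTAAA) in capitals.

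H19: ggtccatcAATAAAtacagttacagtcatt
Kcnq1ot1: taatAATAAAgacATTAAAatccacaaaac
Airn: cattATTAAAatatttttttcatgcccatt
Meg3: gctttcAATAAAtttcttgttttaactaaa
Peg13: taAATAAAtgttgcaagtgtgcctcctgaa
Snhg14: gttctttctaAATAAAcattacatacaatg

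All 10 members, the coding ones included, held such a signal in the last 50 bases of the longest transcript, against 61.4% of 21624 genes with a count and a transcript. A method primed on poly(A) can also start within a transcript at a run of A, and runs of at least 12 A were counted for that reason. Kcnq1ot1 held 8 of them in its unspliced 93092 bases, Meg3 held 3, and Peg3 and Snhg14 held 1 each.

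RefSeq promoters (250 bases before to 50 bases after a start, GRCm38.p6) were matched for 7 members. Those of Kcnq1ot1 and Airn are printed because each of these noncoding RNAs starts inside its coding neighbor, Kcnq1 or Igf2r, and runs on the strand opposite to it. Capitals mark the motifs searched on both strands, which were the CCAAT box, the hypoxia response core ACGTG, the cAMP response element TGACGTCA, the TATA box TATAAA and the GC box GGGCGG.

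Kcnq1ot1, chr7:143296498-143296797, minus strand: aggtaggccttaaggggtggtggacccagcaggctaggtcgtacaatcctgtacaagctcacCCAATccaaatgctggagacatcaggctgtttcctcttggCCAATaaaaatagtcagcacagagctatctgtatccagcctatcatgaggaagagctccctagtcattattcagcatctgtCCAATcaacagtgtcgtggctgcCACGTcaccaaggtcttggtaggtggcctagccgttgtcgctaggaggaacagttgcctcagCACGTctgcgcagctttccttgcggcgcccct
Airn, chr17:12741061-12741360, plus strand: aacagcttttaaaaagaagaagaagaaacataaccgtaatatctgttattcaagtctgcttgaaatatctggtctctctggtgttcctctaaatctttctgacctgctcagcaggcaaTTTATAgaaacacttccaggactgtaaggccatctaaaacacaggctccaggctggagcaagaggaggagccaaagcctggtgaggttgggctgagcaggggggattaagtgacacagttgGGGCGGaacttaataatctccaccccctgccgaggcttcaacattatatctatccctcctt

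The Kcnq1ot1 promoter held CCAAT 3 times and ACGTG 2 times, and that of Airn held TATAAA and GGGCGG 1 time each. Of 32851 promoters of the same length, 37.4% held CCAAT, 19.6% ACGTG, 13.6% TATAAA, 35.7% GGGCGG and 1.79% TGACGTCA. The Igf2r promoter held ACGTG 4 times, counted on both strands of its CACGTG palindromes, and it was the richest of these promoters in CpG, with 34 CpG against 3 in that of Airn. The Peg3 promoter held CCAAT 2 times and TGACGTCA 1 time. These are letters in a window and not binding sites.

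Counts on genes lay between 2509482 and 5893246 per tumor, and the floor of 3 counts, which covers counting error only, lay between 0.509 and 1.20 CPM. The sort was checked on markers. The luminal list (Epcam, Cdh1, keratins and claudins) summed to 3957 to 4874 CPM, with all 7 of its genes detected. The 7 fibroblast genes summed to 10.4 to 20.9 CPM and the 6 endothelial genes to 1.59 to 4.12 CPM. Of the endothelial genes, Pecam1 (1.20 to 2.04 CPM) and Kdr (0.195 to 2.20 CPM) had counts in every tumor. Cdh5 and Tek never exceeded the floor, and Tie1 and Emcn were at 0 in every tumor. The 5 erythroid genes reached 864 CPM and the 9 immune genes 232 CPM in tumor 3, against at most 69.4 and 53.5 CPM in the other tumors. The library of tumor 1 stood apart. Genes whose longest transcript had under 45% GC were lower in it than in the median of the other tumors by a median of -0.48 (log2), and those with at least 55% GC were higher by 0.52, while the same medians lay between -0.21 and 0.13 for each of tumors 2 to 6. The share of reads assigned to no gene, with reads ambiguous between genes included, ran from 16.1% in tumor 1 to 41.4% in tumor 2. Results are therefore given with and without tumor 1.

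By reads, Kcnq1ot1 led the set, with a median of 495 CPM over the 6 tumors, followed by Peg3 at 86.3, Igf2r at 73.5, Snhg14 at 29.9, Airn at 24.7, Peg13 at 17.8, Cdkn1c at 12.9, H19 at 7.28 and Meg3 at 3.16 CPM, with Igf2 at a median of 0. Only the first and the last of these steps parted the ranges of neighbors: every tumor had more Kcnq1ot1 than any had Peg3, and every tumor had more Meg3 than any had Igf2. Per length, as TPM over the union of annotated exons, the order was another. Igf2r came first with a median of 20.04 TPM, and Airn (17.3), Cdkn1c (16.3), Peg3 (16.1) and Kcnq1ot1 (13.4) lay close to it with overlapping ranges. Peg13 followed at 9.71, H19 at 7.79, Snhg14 at 2.94 and Meg3 at 0.460 TPM, and the ranges of these last 2 did not overlap. A 3′ method yields reads mainly at the end of a transcript whatever its length, so division by length lowers a long RNA such as Kcnq1ot1. Priming at the 8 runs of A within Kcnq1ot1 would instead raise its CPM, and this was not tested. The order between genes is therefore given on both scales.

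**Figure D1:**
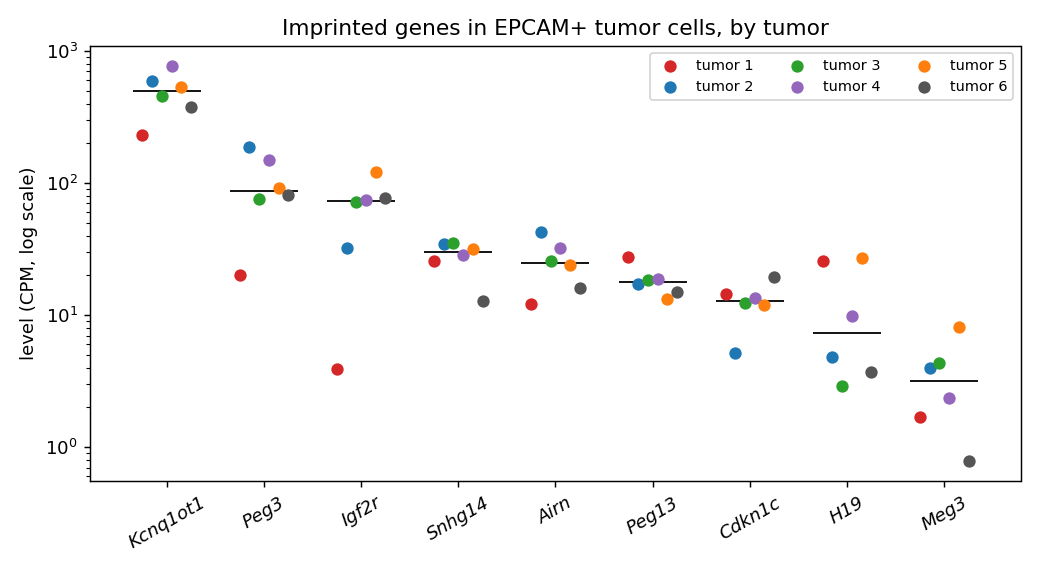
Level of 9 imprinted genes in each of the 6 tumors, in CPM on a log axis, with the median as a line and the genes ordered by it. Igf2 is left out because it was at 0 in 4 tumors. Kcnq1ot1 lies above all others, and the points of Igf2r are spread the most, with tumor 1 far below the others.

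At the H19 locus on the distal end of chromosome 7, the noncoding RNA was detected in every tumor and its coding partner in almost none. H19 (chr7:142575529-142578143, minus strand) is a spliced noncoding RNA that also carries miR-675, whose mature forms are shown with the seed (bases 2 to 8) in capitals, from RefSeq (GRCm38.p6).

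miR-675-5p: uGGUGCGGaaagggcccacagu
miR-675-3p: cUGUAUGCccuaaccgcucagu

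The miR-675 gene itself had 0 counts in all 6 tumors, in libraries made from polyadenylated RNA. H19 had 25.8, 4.78, 2.91, 9.78, 27.2 and 3.71 CPM in tumors 1 to 6. Tumors 1 and 5 were thus high and the rest low, with tumor 4 between them. The range, 9.67-fold in CPM scaled by TMM, was the same without tumor 1, since tumor 5 was the highest and tumor 3 the lowest. The 7 genes of the basal myoepithelial list, 6 of them above the floor in some tumor, summed to 504 CPM in tumor 5 and 289 CPM in tumor 1, against 132 to 241 CPM in the other tumors. Most of the sum came from Krt14, at 359 and 241 CPM in tumors 5 and 1, and from Krt17. Other basal genes did not share that order: Krt5 was lowest in tumor 1 (4.24 CPM) and highest in tumor 4 (17.4 CPM), and Trp63 had 3.39 CPM in tumor 1 and 4.59 in tumor 5 against 16.0 in tumor 4. Myh11, a defining marker of myoepithelial cells, never exceeded 3 counts, and the part of basal cells in the H19 level was not tested.

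Igf2 (chr7:142650766-142666816, minus strand), the growth factor of the locus, had 2 counts in all 6 libraries together, 1 in tumor 2 and 1 in tumor 5. That is 0.0731 CPM over all libraries, with an exact 95% Poisson interval from 0.00885 to 0.264 CPM that covers counting error only. Igf2 was at or under the floor in 6 of 6 tumors and did not pass the filter on low counts, and the H19 and Igf2 levels could not be related. Its antisense RNA Igf2os and the miR-483 gene in its intron had 0 counts. An annotated gene model, Gm49394, shares 62.8% of the Igf2 exons in GENCODE M21 but is not among the identifiers of the files.

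The rest of the IGF axis was uneven. Of its 14 genes, 7 passed the filter on low counts, among them Igf1r, Insr, Igfbp4 and Igfbp5, while Igfbp2, Igfbp3 and the other ligand, Igf1, did not. Igf1 had at most 0.781 CPM. Igf1r, the signaling receptor, had 24.4 to 68.1 CPM with a median of 39.6, and Insr, the insulin receptor, 13.2 to 28.7 CPM. Igfbp5, a secreted binding protein, was the most abundant gene of this list, from 2944 CPM in tumor 1 to 10243 CPM in tumor 6. Igfbp4 reached 273 CPM in tumor 5, with 23.1 to 45.1 CPM elsewhere, and Igfbp3 reached 13.8 CPM there, with no more than 0.390 CPM elsewhere. Tumor 5 therefore stood high for both of these binding proteins as well as for H19. Tumor 1, with H19 nearly as high, had only 43.8 CPM of Igfbp4 and 0.170 CPM of Igfbp3. Igf2bp1 and Igf2bp3, fetal RNA-binding proteins, had at most 2.13 CPM and 0 counts.

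At the next cluster of chromosome 7, Kcnq1ot1 (chr7:143203458-143296549, minus strand), which lies wholly within Kcnq1, had 230, 591, 456, 773, 534 and 378 CPM in tumors 1 to 6. Tumor 1 was the lowest. Without it, the range in TMM-scaled CPM fell from 3.39-fold to 1.83-fold. Cdkn1c (chr7:143458339-143461050, minus strand), the growth inhibitor of the cluster, had 14.4, 5.18, 12.4, 13.4, 12.0 and 19.5 CPM in tumors 1 to 6. Tumor 2 was the lowest and tumor 6 the highest, and the rest lay between 12.0 and 14.4 CPM. Its range was 3.99-fold.

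Other genes of the Kcnq1ot1 cluster spanned a wide range of levels. Cd81, a tetraspanin at the edge of the cluster that most cells use, had 399 to 793 CPM, and Nap1l4, a histone chaperone, 95.7 to 160 CPM. Kcnq1, the potassium channel gene that hosts the noncoding RNA, had 2.39 to 13.4 CPM, and was highest in tumor 1, where Kcnq1ot1 was lowest. Of all genes tested, 32.5% were highest and 31% lowest in that library. Phlda2, an inhibitor of placental growth, had 2.38 to 12.6 CPM and Slc22a18, a transporter, 2.40 to 5.08 CPM. Kcnq1 and Kcnq1ot1 share only 121 exonic bases on opposite strands, 0.13% of Kcnq1ot1.

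On chromosome 17, Airn (chr17:12741311-12860136, plus strand) had 12.2, 42.6, 25.7, 32.3, 23.8 and 16.0 CPM in tumors 1 to 6. Tumor 2 was the highest and tumor 1 the lowest, a range of 3.72-fold, and of 2.51-fold without tumor 1. Airn is known mainly as a long unspliced RNA, while these counts cover the 3597 bases of its annotated exons. Igf2r (chr17:12682406-12769664, minus strand), the receptor that clears IGF2, had 3.90, 32.3, 72.3, 74.7, 122 and 77.3 CPM in tumors 1 to 6. Tumor 1 lay far under the other 5, with 23 counts in the deepest library. The range was 31.4-fold in TMM-scaled CPM and 3.56-fold without tumor 1, and the gap of tumor 1 to the next tumor was 0.612 of the log2 range, under Dixon's critical value for an outlying sample. The genes overlap over 28354 bases but share no exonic base. Slc22a3, a further target of Airn in placenta, had 0 counts in every tumor.

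At the Dlk1 and Meg3 domain of chromosome 12, Meg3 (chr12:109541001-109571726, plus strand), a noncoding RNA of the maternal copy, had 1.70, 3.98, 4.36, 2.34, 8.19 and 0.781 CPM in tumors 1 to 6. These are 4 to 41 counts. Tumor 5 was the highest and tumor 6 the lowest, with a range of 9.34-fold, in which tumor 1 was neither end. The other genes of the domain were at the floor: Dlk1 had 1 count in all tumors, Rian 4 and Mirg 2, and Rtl1 and Dio3 had 0.

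Peg3 (chr7:6703892-6730431, minus strand), a zinc finger protein expressed from the paternal copy, had 20.02, 188, 75.2, 148, 92.0 and 80.6 CPM in tumors 1 to 6. Tumor 1 was the lowest and tumors 2 and 4 the highest, a range of 10.0-fold that became 2.75-fold without tumor 1. Usp29, its paternally expressed neighbor, had 2.71 to 6.19 CPM, and Zim1, a maternally expressed one, never exceeded the floor.

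Peg13 (chr15:72805600-72810324, minus strand), a noncoding RNA within Trappc9, had 27.7, 17.1, 18.4, 18.7, 13.2 and 14.8 CPM in tumors 1 to 6. It was the only 1 of the 9 tested members with its highest level in tumor 1, and the other 5 tumors lay within 1.42-fold. Trappc9, the host gene on the same strand, was also highest in tumor 1, at 35.5 CPM against 12.4 to 16.6 CPM, and the pair shares no exonic base. Kcnk9, the brain potassium channel of the cluster, had 0 counts.

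Snhg14 (chr7:59307924-59975759, minus strand), the host RNA of the small nucleolar RNAs of the Prader-Willi and Angelman region, had 25.6, 34.7, 35.2, 28.3, 31.5 and 12.9 CPM in tumors 1 to 6. Tumor 6 stood below the rest, and its gap to the next tumor was 0.602 of the range on the log2 scale, also under that critical value. Snrpn, which encodes a splicing protein in that region, had 18.0 to 28.7 CPM. Ube3a, a ubiquitin ligase silenced on the paternal copy in neurons, had 124 to 274 CPM. Snhg14 and Ube3a share 1803 exonic bases on opposite strands, 6.91% of the Snhg14 exons, and reads from such bases are told apart only by counting that uses strand. The setting is not given in the sources used here. In these counts, 69.4% of 582 coding genes that end inside exons of an opposite-strand gene had at least 50 counts, against 51.6% of 19427 whose end is free of other genes, and at most 0.501% of reads were ambiguous between genes, so reads at such ends were not generally lost as ambiguous. Ndn and Magel2 had at most 1 count in a tumor.

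Whether the tumors differed by more than counting error was tested for each gene with a chi-square test of its 6 counts against the TMM-scaled library sizes, adjusted by Benjamini-Hochberg over 12088 genes. Of the 10 members, 9 passed the filter on low counts and were tested. All 9 varied beyond counting error, with adjusted p of at most 5.92e-06 (Peg13). So did 89.4% of all genes tested, so the count does not set the members apart. Reads here may be PCR copies, which the test takes as independent. Without tumor 1, 8 of 9 members passed, against 75% of all genes, and Peg13 did not (adjusted p = 0.269).

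By size, 4 of 9 members (Igf2r, Peg3, H19 and Meg3) spanned more than 4-fold between the lowest and the highest tumor, against 22.4% of genes tested. Without tumor 1, 2 of 9 did (H19 and Meg3), against 8.66%. The median range of the members was 3.99-fold and that of all genes tested 2.45-fold. In edgeR's estimate, the dispersion of Igf2r was 3.84 times the trend for its level, above that of 99.4% of genes tested, that of H19 was 2.74 times the trend, that of Peg3 2.36 times and that of Meg3 1.48 times. Airn (1.20), Kcnq1ot1 (1.10), Cdkn1c (0.920) and Snhg14 (0.847) followed, and Peg13 was lowest (0.678). The median gene tested lay at 0.823 of the trend, and 8 of 9 members lay above it. The median ranges and the dispersions include tumor 1 and were not estimated without it. Leaving it out, the range of Igf2r fell from 31.4-fold to 3.56-fold and that of Peg3 from 10.0-fold to 2.75-fold.

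Of the other 22 imprinted genes tested, 19 varied beyond counting error, against 89.4% of all genes, and 7 spanned more than 4-fold, against 22.4%. Without tumor 1 these counts were 15 (75% of all genes) and 2 (8.66% of all genes). The 3 that did not vary beyond it were Slc22a18, Mkrn3 and Snrpn, the last with an adjusted p of 0.0506 in the chi-square test. Sfmbt2, a polycomb protein needed in the placenta, was lowest in tumor 1, at 0.679 CPM against 4.36 to 12.5 CPM. Rasgrf1, a Ras exchange factor, was highest there, at 12.4 CPM against 2.00 to 7.52 CPM. Gnas, which encodes a G protein subunit, ran from 148 CPM in tumor 1 to 807 CPM in tumor 6, and Grb10, a growth inhibitor that binds the insulin receptor, had 15.6 to 47.3 CPM. Peg10, a gene derived from a retrotransposon, had 21.5 CPM in tumor 4 and 0.485 CPM in tumor 3, where it is 2 counts. Nnat, a small membrane protein, was high in tumors 1, 4 and 5 (12.2, 12.98 and 14.2 CPM) and low in tumors 2, 3 and 6 (3.98, 2.67 and 4.69 CPM). Sgce, the neighbor of Peg10, reached 14.4 CPM in tumor 5, with no more than 1.28 CPM elsewhere, and did not pass the filter.

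**Figure D2:**
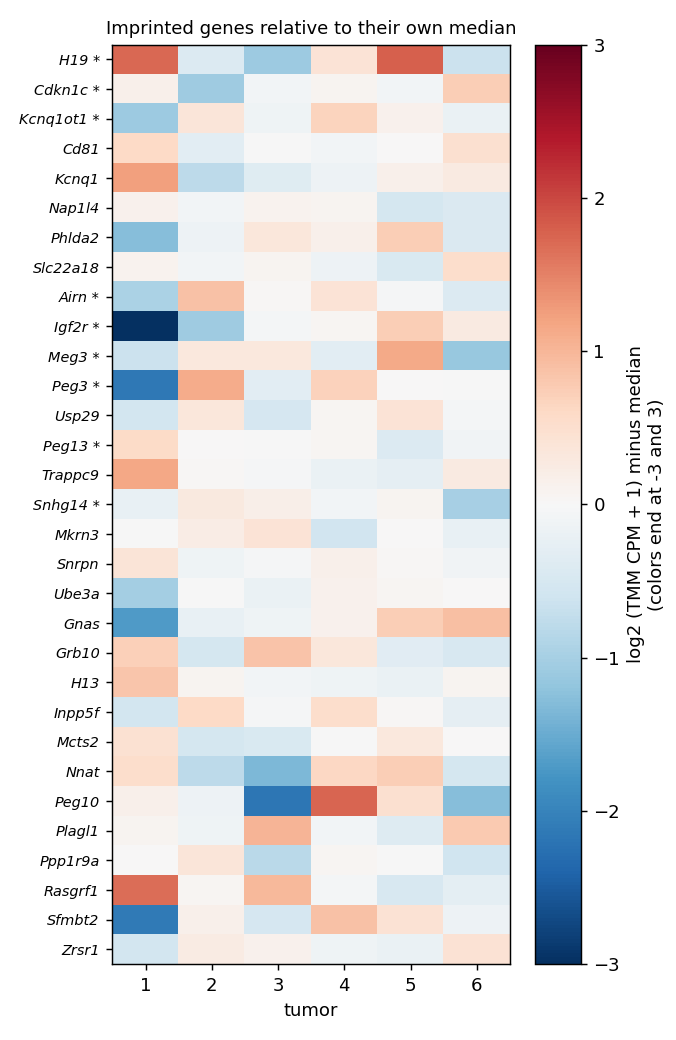
Heat map of 9 members (asterisks) and 22 other imprinted genes, grouped by locus, in tumors 1 to 6. Color gives log2 (TMM-scaled CPM + 1) minus the median of the gene. Tumor 1 holds deep blue cells (Igf2r, Peg3, Sfmbt2) as well as red ones (H19, Rasgrf1), H19 is red in tumors 1 and 5, and Peg10 goes from blue in tumor 3 to red in tumor 4.

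The proteins that keep imprints were read for context. Trim28, a corepressor, had 110 to 350 CPM, and Dnmt1, the maintenance methyltransferase, 61.4 to 92.4 CPM. Zfp57, the zinc finger protein that binds imprints in embryonic cells, had 0 counts in all tumors. Zfp445, which shares that role, had 0 counts in tumor 1 and 2.91 to 22.3 CPM in the others. Of the 9 genes of this list tested, 7 were lowest in tumor 1, against 31% of all genes tested, and Trim28 was highest there. These genes were read in the same library whose levels moved with GC content and transcript length.

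Of the 9 tested members, 4 (Kcnq1ot1, Airn, Igf2r and Peg3) had their lowest level in tumor 1, against 31% of all genes tested, and 1 (Peg13) its highest, against 32.5%. Airn, with 46.5% GC, Meg3 (49.2%), Peg3 (46.8%), Igf2r (51.2%) and Kcnq1ot1 (40.3%) lay under the lower quartile of genes of like GC content in tumor 1, and H19 (55.8%) lay above the upper quartile. On the log2 scale the difference of tumor 1 from the median of the others was -3.95 for Igf2r, against a median of 0.27 for genes of like GC content and of -0.51 for genes with transcripts of at least 8000 bases. For H19 it was 2.13, against 0.52 for genes of like GC content. The part of GC content and transcript length in the members' levels was not tested.

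**Figure D3:**
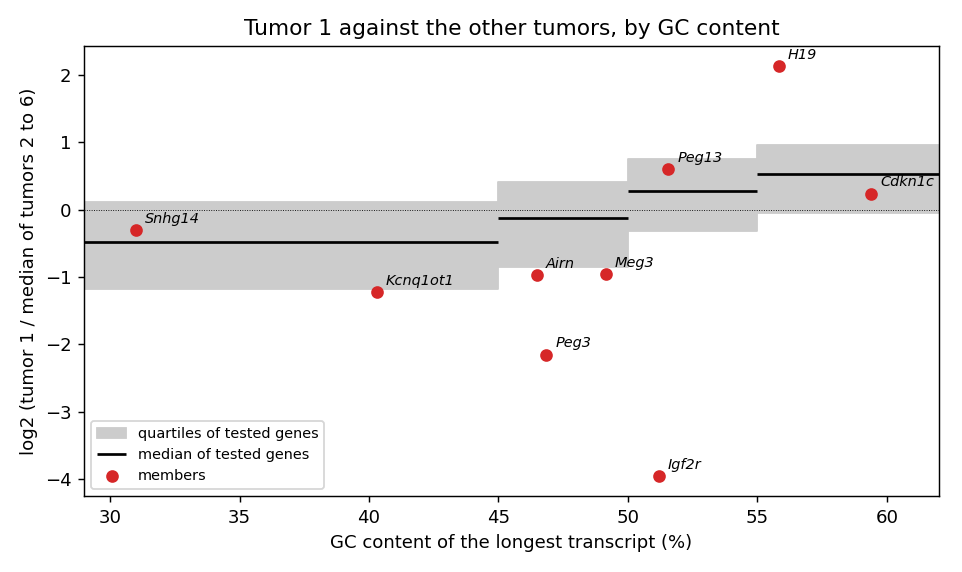
Log2 ratio of tumor 1 to the median of tumors 2 to 6 for the 9 tested members (red points), against the GC content of the longest transcript in percent. Gray bands give the quartiles and black lines the median of all tested genes in 4 ranges of GC content. Igf2r at -3.95 and Peg3 at -2.15 lie far under the bands and H19 at 2.13 above them.

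The share of reads on no gene was set beside the members' levels. It covers every read not assigned to a gene, ambiguous ones included, and does not isolate reads outside genes. This relation was examined after the values were seen. Airn followed it tumor by tumor, with a Pearson's r of 0.968 (exact permutation p = 0.00278, adjusted p = 0.268) and a Spearman's rho of 1 (exact permutation p = 0.00278, the smallest that ranks of 6 tumors allow, adjusted p = 0.153), and r was 0.903 without the 2 tumors farthest from the median share and 0.965 without tumor 1. For Peg3, r was 0.834 (exact permutation p = 0.0458, 0.361 after adjustment) with a rho of 0.829 (exact permutation p = 0.0583), and r was 0.404 without those 2 tumors, on which the relation rests. For Kcnq1ot1, r was 0.751 (exact permutation p = 0.0861, 0.434 after adjustment) with a rho of 0.886 (exact permutation p = 0.0333), and r was 0.624 without them. Cdkn1c had the opposite sign, with an r of -0.811 (exact permutation p = 0.0708, 0.408 after adjustment), a rho of -0.771 (exact permutation p = 0.103), and an r of -0.630 without those 2 tumors, -0.903 without tumor 1 and -0.411 without tumor 2. Igf2r had an r of 0.314 (exact permutation p = 0.519) and a rho of -0.0286 (exact permutation p = 1), and without tumor 1 its r was -0.919. Of the 9 members, 2 had an unadjusted p under 0.05 by r, against 13.3% of all genes, and 2 by rho, against 9.48%. No gene of the 12088 passed after adjustment by either measure (0 genes), and 110 genes shared the perfect rank order of Airn. With 720 orders the exact p cannot fall under 0.00139. A gene could thus pass after adjustment only if many genes shared the smallest p, so this result says little. The part of this share in the levels was not tested.

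For the locus pairs Kcnq1ot1 with Cdkn1c and Airn with Igf2r, the question was whether the partners moved in opposite directions. Other noncoding and coding genes that share a locus, such as Snhg14 and Ube3a, were not examined in this way. Over 6 tumors, Kcnq1ot1 and Cdkn1c had a Pearson's r of -0.376 (exact permutation p = 0.422, adjusted p = 0.644) and a Spearman's rho of -0.543 (exact permutation p = 0.297, adjusted p = 0.752) in log2 (TMM-scaled CPM + 1). The r was -0.889 without the 2 tumors farthest from the median of Kcnq1ot1, and -0.442 without tumor 1. Airn and Igf2r had an r of 0.487 (exact permutation p = 0.353, adjusted p = 0.628) and a rho of -0.0286 (exact permutation p = 1, adjusted p = 1). Here tumor 1 decided the sign. It was lowest for both genes, and without it r was -0.796, with no test at 5 tumors. Adjustment was over the relations of the noncoding RNA with 12087 genes, of which 16.7% had an unadjusted p under 0.05 with Kcnq1ot1 and 17.1% with Airn. Neither pair passed. With values centred within the identifier prefix, QAF for 4 tumors and QSD for 2, r was -0.342 for Kcnq1ot1 and Cdkn1c and 0.560 for Airn and Igf2r, while neither prefix alone holds enough tumors for a correlation.

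**Figure D4:**
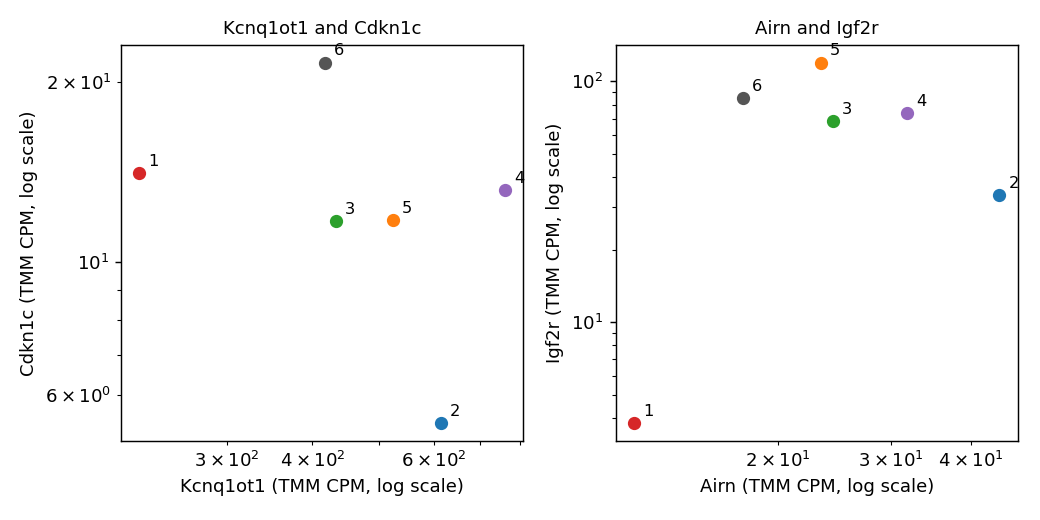
Level of the coding gene against that of the noncoding RNA of its locus, in TMM-scaled CPM on log axes, 1 point per tumor with its number. For Kcnq1ot1 and Cdkn1c (left) tumors 1, 3, 4 and 5 lie at a like Cdkn1c level, and for Airn and Igf2r (right) tumor 1 is lowest on both axes while tumor 2, with the most Airn, has the least Igf2r of tumors 2 to 6.

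The relation to hypoxia was examined with the 3-gene score of the study, the mean TPM of Vegfa, Slc2a1 and Car9, which was 48.5, 37.2, 51.4, 76.6, 94.4 and 47.3 TPM in tumors 1 to 6. Vegfa and Car9 were lowest in tumor 1, as were 31% of all genes tested, and Slc2a1 was lowest in tumor 2. The part of the tumor 1 library in the score was not tested. The slope of each gene on log2 of the score was fitted with edgeR's quasi-likelihood test. No member had an adjusted p under 0.05, and neither did any of the 12088 genes (0, or 0% of genes tested), with 512 genes (4.24%) and 0 members at an unadjusted p under 0.05. DESeq2 called 15 genes and no member. The edgeR test was also run on simulated data with the dispersion of each gene set at the trend. It recovered 51.5% of genes given a slope of 2, so slopes of that size and smaller can be missed. Igf2r, H19, Peg3 and Meg3 had dispersions of 3.84, 2.74, 2.36 and 1.48 times the trend, so larger slopes can be missed for them. H19 had a slope of 1.23 (SE 0.81, adjusted p = 0.954), Igf2r 1.21 (SE 0.83, adjusted p = 0.954) and Meg3 0.98 (SE 0.70, adjusted p = 0.954), in log2 units of level per log2 unit of score, and the slopes of the other 6 tested members lay between -0.36 and 0.32.

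Without tumor 1, the edgeR slope of H19 was 2.14 (SE 0.48, unadjusted p = 0.00103, adjusted p = 0.204) and that of Igf2r 0.91 (SE 0.33, unadjusted p = 0.0201, adjusted p = 0.508). The H19 slope moved the other way without tumor 5, to 0.46 (SE 1.43, adjusted p = 1), and with the identifier prefix as a term, to 0.42 (SE 0.85, adjusted p = 0.926). With that term the Meg3 slope was 2.19 (SE 0.75, unadjusted p = 0.0186, adjusted p = 0.889). Without tumor 1, 2 of 9 members had an unadjusted p under 0.05 in this test, against 8.26% of 11920 genes. With the prefix term, 1 of 9 did, against 4.33% of 12088 genes. As correlations over 6 tumors, H19 had a Pearson's r of 0.559 with the score (exact permutation p = 0.246, adjusted p = 0.968) and a Spearman's rho of 0.486 (exact permutation p = 0.356, adjusted p = 0.958), and r was 0.0728 without the 2 tumors farthest from the median score. Igf2r had an r of 0.471 (exact permutation p = 0.340, adjusted p = 0.968) and a rho of 0.543 (exact permutation p = 0.297, adjusted p = 0.958), and r was -0.00702 without those tumors. Over the 9 members, r lay between -0.483 and 0.559, with no exact p under 0.246.

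**Figure D5:**
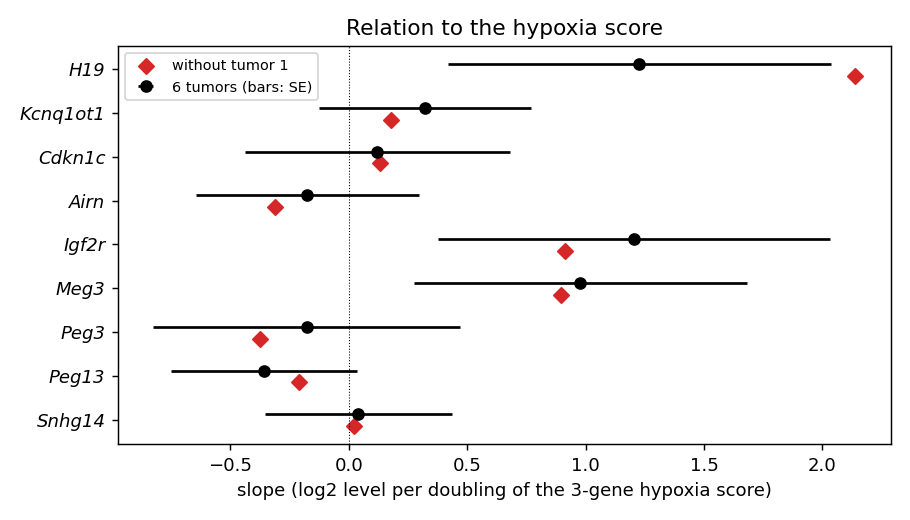
Slope of 9 members on log2 of the 3-gene hypoxia score, in log2 units of level per log2 unit of score, from edgeR. Black points are the fit over 6 tumors with bars of 1 SE, and red diamonds the fit without tumor 1. H19 moves from 1.23 to 2.14 when tumor 1 is left out, and no adjusted p is under 0.05.

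For the 8 members whose mean reached 10 CPM, the genes of the most like pattern were sought among 8872 others of that level by Pearson's r over 6 tumors. With 6 points and this many genes, values near 1 arise for any gene, and no p is given. Peg3 was nearest to Thrap3 (r 1.00, and 0.999 without tumor 1), Trpm7 and Herc2, Igf2r to Ubxn7 (0.994), Zc3h6 and Nectin4, and Airn to C2cd5 (0.994), Ice2 and Sbf2. Kcnq1ot1 was nearest to Heatr6 (0.993), Pkn2 and Caprin1, Peg13 to Acadsb (0.994), Jak1 and Flad1, and Cdkn1c to Cfap298 (0.979), Cog7 and Dr1. H19 was nearest to Socs5 (0.986), Espn and Map3k20, and Snhg14 to E2f5 (0.970), Psd3 and Azin2. None of these 24 genes is a member or on the list of other imprinted genes. Only 9 members and 22 other imprinted genes were tested, few beside the 8872 genes searched, so this count says little.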

How the data were processed

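Sorted cells of 6 tumors were read with QuantSeq FWD, a 3′ method. The authors aligned reads with STAR 2.5 and deposited raw HTSeq counts per gene on GRCm38 (submitters' processing notes); annotation release, strand setting and use of molecular identifiers are not given in the sources used here. Reads assigned to no gene, ambiguous ones included (16.1 to 41.4%), were left out. Of 47643 identifiers, 47224 were named with GENCODE M21; 12088 passed a filter of 10 counts at the median depth in at least 3 tumors and 15 counts in all. TMM scaling and slopes used edgeR 4.0.16, and DESeq2 1.42.0 was an alternative. Chi-square and exact permutation tests (720 orders, two-sided) used Python 3.11.15 with scipy 1.17.1, on log2 (CPM + 1) for correlations, with Benjamini-Hochberg adjustment over all genes tested. Both tests across genes were tested on simulated data. There, with dispersion set at the trend, the slope test recovered 51.5% of 200 genes given a slope of 2. Libraries differed pairwise by 20.7 to 131 in chi-square per degree of freedom, so none is a copy. Nothing in the labels says that tumors came from separate mice, so p-values of slopes and correlations measure the spread between these samples. Those of the chi-square test measure departure from counting error only. Named genes were the members, listed genes at 10 CPM or where a result turned on them, overlapping genes and the 3 genes of most like pattern. Members and lists were chosen with earlier results of these data known. Genes of the other lists named under 10 CPM were chosen after their values were seen.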

Additional observations from a re-analysis of the deposited data

How the results depend on the processing

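The count of members beyond counting error was 9 under DESeq2's size factors, plain CPM, no filter and 8 to 9 with a tumor left out. The count above 4-fold (4) was 2 without tumor 1 and 2 to 4 over the tumors left out. No member passed on the hypoxia score under any of 11 alternatives (0 to 0 with a tumor left out), but of 99 alternative slopes 9 changed sign, none past the threshold. With the identifier prefix as a term, the slope was -0.30 for Cdkn1c, 0.56 for Airn and 0.57 for Peg3, and without a change of sign 2.19 for Meg3 and 0.42 for H19. Leaving out 1 tumor, the slope ran from -0.48 to 0.59 for Cdkn1c (negative without tumor 2), -0.39 to 0.73 for Airn and -0.51 to 1.07 for Peg3 (positive without tumor 2), -0.45 to 1.83 for Meg3 (negative without tumor 5) and -0.15 to 0.45 for Snhg14 (negative without tumor 5 or 6). Leaving out a tumor, the r of Kcnq1ot1 and Cdkn1c ran from -0.533 to -0.193, and that of Airn and Igf2r from -0.796 (without tumor 1) to 0.785 and that of Igf2r with the share of reads on no gene, a relation added after seeing the data, from -0.919 (without tumor 1) to 0.674; the cause was not tested. No member had a tumor past Dixon's critical value in log2 (TMM-scaled CPM + 1) (0), on linear CPM or with DESeq2's size factors. Other pseudocounts were not tried for Dixon's test. Of 90 alternative medians, 84 moved by less than 1 SD, and the 6 others were in TPM, an alternative chosen after seeing the data. No paired analysis was possible because there is 1 group. Depth limits Igf2 and Meg3, with 2 and 94 counts in all.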
